A study of Rattus norvegicus with 9 samples.

Results

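Synaptotagmins, a family of membrane proteins that link calcium to the fusion of vesicles, were followed in microglia sorted from the retinas of diabetic and control rats. The genes described are Syt2, Syt3, Syt4, Syt5, Syt6, Syt7, Syt11, Syt12, Syt13 and Syt17, which are 10 of the 28343 genes in the count table and 10 of its 17 numbered synaptotagmins. They were chosen by name, and the set was built around Syt3 because earlier results on the same libraries had shown it higher in diabetic microglia. The question was whether Syt3 moved together with the synaptotagmins of neurons. The difference between the groups is therefore given for the members as a description, and no test of it is drawn on.

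All rats were of the Dark Agouti strain and carried no engineered allele in the labels. The 4 diabetic libraries (numbered 1, 2, 4 and 5) came from rats given streptozotocin, which destroys insulin-producing cells, at 55 mg/kg when 8 to 10 weeks old, with 2 units of insulin given if blood glucose passed 30 mmol/l. The 5 control libraries (numbered 1, 3, 4, 5 and 6) came from rats given citrate buffer. Both groups had fasted for 12 hours before the injection, and retinas were taken 4 weeks after it. Cells were released with papain and sorted on CD11b, a surface protein of microglia that blood-derived and border myeloid cells also carry. The RNA was preamplified before sequencing, and the labels do not say whether a library holds 1 animal, so p-values measure the spread between libraries.

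Each synaptotagmin has a membrane anchor or its equivalent and paired C2 domains. In some members these domains bind calcium and membrane lipids and act on the SNARE proteins that fuse a vesicle with its target, and in others they do not bind calcium. Syt1, Syt2 and Syt5 are the fast calcium sensors of synaptic and secretory vesicles. Syt3, Syt6, Syt9 and Syt10 form a related calcium-binding class whose members pair through cysteines, and Syt7 is a slow, sensitive sensor that also acts in the fusion of lysosomes with the plasma membrane. Syt4 and Syt11 form a pair with altered calcium binding, and Syt11 has been described in microglia and macrophages as a brake on secretion and phagocytosis. Syt12, Syt13 and Syt17 do not bind calcium through their C2 domains. In the older rat nomenclature the names of Syt5 and Syt9 were exchanged, and the classes given here use the RefSeq symbols. The counts carry the symbols of the count table, and which protein its Syt5 and Syt9 rows hold was not checked.

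Total counts ran from 6228756 in diabetic 4 to 11332823 in control 3. The microglia list, 16 of whose 18 genes were tested, summed to 36200 to 41100 CPM in control and 36200 to 38900 CPM in diabetic libraries, with Siglech at 0 in every library. CPM, the read count relative to library size, is taken after TMM scaling, a correction for differences in RNA composition. Lists of other cells were present at lower levels. The inner retinal neuron list, with Vsx1 and Trpm1 among its most abundant genes and the ganglion cell factors Pou4f1 and Pou4f2 at 0, summed to 77.6 to 140 CPM in control libraries, and to 268 CPM in diabetic 1, 179 CPM in diabetic 2, 162 CPM in diabetic 4 and 102 CPM in diabetic 5. In bulk RNA a change in the number of cells of a type cannot be told apart from a change in RNA per cell.

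The bases before the annotated starts of Syt3, Syt11 and Syt1 are shown because these are the synaptotagmins with the most counts here and their levels across libraries differed in kind. RefSeq promoter windows on GRCr8 matched 5 of the 10 members. Whether the annotated starts were used in the sorted cells was not tested. The 250 bases before the start are printed 5′ to 3′ on the gene's strand, with matches to the motifs searched in capitals. Syt3 is at chr1:104017874-104018123 on the plus strand, Syt11 at chr2:176529776-176530025 on the minus strand and Syt1 at chr7:46244214-46244463 on the minus strand.
Syt3: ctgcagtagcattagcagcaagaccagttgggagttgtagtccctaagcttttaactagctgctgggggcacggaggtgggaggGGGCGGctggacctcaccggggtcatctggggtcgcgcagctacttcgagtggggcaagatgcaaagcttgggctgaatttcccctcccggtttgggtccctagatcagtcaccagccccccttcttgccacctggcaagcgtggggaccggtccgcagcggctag
Syt11: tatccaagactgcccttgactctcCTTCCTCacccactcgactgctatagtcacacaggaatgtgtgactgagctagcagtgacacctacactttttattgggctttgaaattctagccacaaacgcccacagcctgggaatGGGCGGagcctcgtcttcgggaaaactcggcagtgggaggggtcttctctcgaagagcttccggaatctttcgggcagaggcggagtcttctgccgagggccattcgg
Syt1: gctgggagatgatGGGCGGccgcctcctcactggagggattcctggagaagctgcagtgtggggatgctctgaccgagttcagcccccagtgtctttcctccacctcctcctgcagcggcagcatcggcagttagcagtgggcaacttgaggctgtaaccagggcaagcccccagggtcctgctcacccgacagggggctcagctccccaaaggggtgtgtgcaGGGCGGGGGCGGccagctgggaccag

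The GC box GGGCGG, searched on both strands, occurred once in the Syt3 and Syt11 windows and at 3 positions in the Syt1 window, and 30.5% of all 33469 windows of this length held it. The core of the myeloid factor PU.1, GAGGAAG, occurred once in the Syt11 window, on the other strand, and in 10.2% of all windows. It was not among the letters of the Syt3 or Syt1 window. The AP-1 site TGANTCA (6.34% of all windows), the E-box CACGTG (5.59%) and the TATA box TATAAA (12.9%) matched none of the windows shown. G and C made up 61.6% of the Syt3 window, 54.8% of the Syt11 window and 66.0% of the Syt1 window.

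Syt3 was higher in every diabetic library than in any control library. It was at 16.4, 17.0, 15.7, 17.3 and 13.1 CPM in controls 1, 3, 4, 5 and 6. It was at 30.2, 29.4, 32.3 and 26.5 CPM in diabetic 1, 2, 4 and 5. The groups did not overlap, and each lay within a narrow band, on 102 to 196 counts in control and 203 to 306 counts in diabetic libraries. The means were 15.9 ± 1.67 CPM (SD, n = 5) and 29.6 ± 2.41 CPM (SD, n = 4), a ratio of 1.86. The log2 fold change, diabetic minus control, was 0.89 (SE 0.20), with an adjusted p of 0.038 in edgeR's quasi-likelihood test and the third smallest p of all genes tested. That value is the one for which the gene was picked. In the authors' deposited table the log2 fold change of Syt3 was 0.997, with an adjusted p of 0.000279. Fitted without scaling factors, the log2 fold change of Syt3 was 1.00 here, and that of Syt11 was 0.11 against 0.114 in the authors' deposited table.

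**Figure D1:**
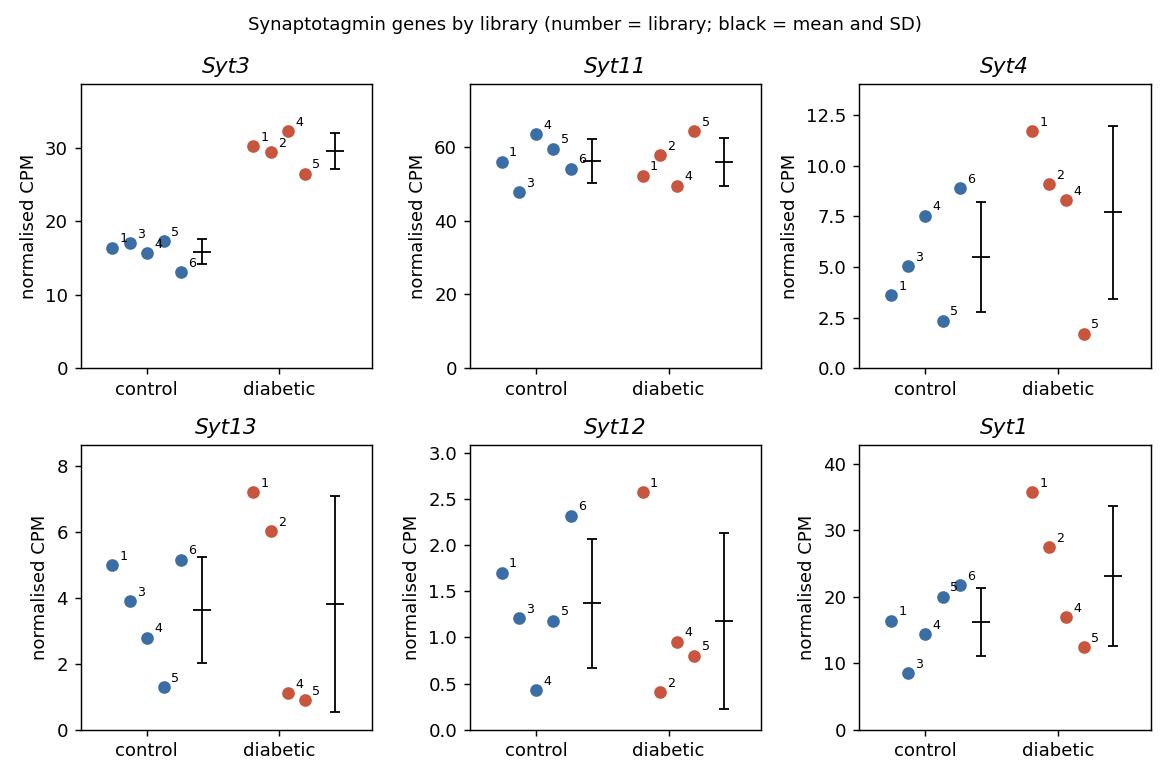
Normalised CPM (vertical axes, from 0) of 6 synaptotagmins in each of the 5 control and 4 diabetic libraries, with library numbers beside the points and the mean and SD in black. Syt3 lies at 13.1 to 17.3 CPM in control and 26.5 to 32.3 CPM in diabetic libraries, while the groups overlap for Syt11, Syt4, Syt13, Syt12 and Syt1.

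A filter on low counts left 5 of the 10 members, Syt3, Syt4, Syt11, Syt12 and Syt13. Of these, 1 passed an adjusted p of 0.05, against 0.0681% of the 11748 genes tested, 0.0426% higher and 0.0255% lower. The groups did not overlap for the same 1 of 5, against 8.44% of all genes in either direction and 4.27% with diabetic libraries higher. Since the contrast was used to choose Syt3, nothing is read from these counts.

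Syt11, the member with the most counts, was level. It was at 56.0, 47.8, 63.5, 59.5 and 54.1 CPM in controls 1, 3, 4, 5 and 6, and at 52.2, 57.8, 49.5 and 64.3 CPM in diabetic 1, 2, 4 and 5. The diabetic values lay almost wholly within the control range, and the log2 fold change was -0.0043 (SE 0.12) on 311 to 643 counts per library.

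Syt4, the partner of Syt11 in sequence and known from neurons and endocrine cells, varied widely within both groups. It was at 3.59, 5.03, 7.52, 2.35 and 8.89 CPM in controls 1, 3, 4, 5 and 6. It was at 11.7, 9.08, 8.28 and 1.7 CPM in diabetic 1, 2, 4 and 5, the last of which was the lowest of all 9 libraries. The groups overlapped, and the log2 fold change was 0.50 (SE 0.54). Diabetic 5, which was lowest for Syt4, had 26.5 CPM of Syt3.

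Syt13, an atypical member without calcium binding, split the diabetic libraries into pairs. It was at 5.00, 3.90, 2.79, 1.28 and 5.16 CPM in controls 1, 3, 4, 5 and 6. It was at 7.20 CPM in diabetic 1 and 6.02 in diabetic 2, above every control, and at 1.11 CPM in diabetic 4 and 0.90 in diabetic 5, below every control. Its log2 fold change was 0.094 (SE 0.63). Syt3 was at 32.3 and 26.5 CPM in diabetic 4 and 5, above every control.

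Syt12 was near the limit of what the counts can resolve. Its counts were 18, 14, 4, 11 and 18 in controls 1, 3, 4, 5 and 6, and 26, 4, 6 and 8 in diabetic 1, 2, 4 and 5. Diabetic 1 was the highest library at 2.57 CPM and diabetic 2 the lowest at 0.408 CPM. The log2 fold change was -0.18 (SE 0.59).

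The other 5 members had too few counts to be compared. Syt2, a fast sensor of inhibitory and motor synapses, had 1 count in diabetic 5 and 0 elsewhere, and 0 in the 50062982 counts of the control group allows up to 0.0599 CPM before TMM scaling, for counting error only. Syt5, a sensor of secretory vesicles, had 8, 1, 3, 1 and 4 counts in controls 1, 3, 4, 5 and 6, and 8, 8, 0 and 0 in diabetic 1, 2, 4 and 5. Syt7, the lysosomal sensor, had 2, 1, 0, 2 and 1 counts in the controls in the same order, and 4, 4, 0 and 0 in the diabetic libraries. For Syt5 and Syt7, all diabetic counts came from diabetic 1 and 2. A count of 0 allows up to 0.482 CPM in diabetic 4, the shallowest library, and 0.312 CPM in diabetic 5.

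Syt6, the member of the list most related to Syt3, had 6, 0, 5, 1 and 10 counts in controls 1, 3, 4, 5 and 6, and 12, 5, 0 and 1 in diabetic 1, 2, 4 and 5. These sum to 22 control and 18 diabetic counts. Syt17, a protein of the Golgi and plasma membrane, had 8 counts in control 3, 1 in control 6, 1 in diabetic 5 and 0 elsewhere.

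The synaptotagmins outside the list were read next, since Syt1 is the main calcium sensor of retinal amacrine and other conventional synapses. Syt1 was at 16.4, 8.5, 14.4, 20 and 21.7 CPM in controls 1, 3, 4, 5 and 6. It was at 35.7 CPM in diabetic 1 and 27.5 in diabetic 2, above every control, and at 16.9 CPM in diabetic 4 and 12.4 in diabetic 5, within the control range. The log2 fold change was 0.52 (SE 0.37, quasi-likelihood adjusted p = 0.406). The authors' deposited table lists Syt1 at 0.659 (log2, adjusted p 0.274).

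Syt9, of the class of Syt3 if its row follows RefSeq naming, fell below the count filter. It had 12, 1, 2, 4 and 2 counts in controls 1, 3, 4, 5 and 6, and 30, 23, 6 and 2 in diabetic 1, 2, 4 and 5, so that diabetic 1 and 2 again lay highest. The authors' deposited table lists it at 2.00 (log2, adjusted p 0.153). Syt15 was at 0.387 to 1.42 CPM in control and 0.800 to 1.48 CPM in diabetic libraries (log2 fold change 0.29, quasi-likelihood adjusted p = 0.727). Syt16 had 5 counts or fewer in each control library, and 7, 4, 0 and 3 counts in diabetic 1, 2, 4 and 5. Syt10 had 1 count in all, Syt14 had 5, and Syt8 had none.

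Levels are compared between genes only per length of exon, which the assemblies gave for 2 members. The Ensembl transcript of Syt3 (ENSRNOG00000019318, Rnor6 chromosome 1, 100393303 to 100408083, plus strand) has 10 exons and 3224 bases of exon. That of Syt4 (ENSRNOG00000017333, chromosome 18, 24172587 to 24182012, minus strand) has 4 exons and 3893 bases. With exons of similar length, the higher CPM of Syt3 in each of the 9 libraries is also a higher level per length.

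The neuronal vesicle list was used as a measure of neuronal RNA that holds no synaptotagmin. It comprises SNAREs, complexins, synapsins, vesicle proteins and transmitter transporters of nerve terminals, and 25 of its 32 genes in the table were tested. Its summed level was 498, 330, 387, 423 and 462 CPM in controls 1, 3, 4, 5 and 6, and 637, 591, 459 and 354 CPM in diabetic 1, 2, 4 and 5. Diabetic 1 and 2 were above every control, diabetic 4 and 5 were inside the control range, and the order of the diabetic libraries was that of Syt1, Syt9, Syt13 and Syt4. Syt3 in diabetic 5, with 354 CPM of these genes, was at 26.5 CPM, and in control 1, with 498 CPM of them, at 16.4 CPM. No gene of the list passed an adjusted p of 0.05 in either direction. At an unadjusted p of 0.05, 3 were higher and 1 lower, against 18.9% of all genes, and the median log2 fold change of the list was 0.44 against 0.00 over all genes.

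The inner retinal neuron list held genes whose groups were apart. Of its 21 tested genes 17 were higher and none passed an adjusted p of 0.05. At an unadjusted p below 0.05, 7 were higher and 2 lower, 9 of 21 in all against 18.9% of all genes, and the groups did not overlap for 2, both higher, against 8.44% of all genes. Pcp2, a gene of bipolar cells, was at 8.02, 5.46, 5.05, 5.67 and 5.03 CPM in controls 1, 3, 4, 5 and 6 and at 24.4, 14.9, 24.0 and 8.6 CPM in diabetic 1, 2, 4 and 5. As for Syt3, all its diabetic values were above the controls (log2 fold change 1.61, SE 0.42, quasi-likelihood adjusted p = 0.0608). Isl1, a factor of bipolar and other inner neurons, was at 2.19 to 6.13 CPM in the controls and 5 to 14.2 CPM in diabetic libraries, which overlap (log2 fold change 1.68, SE 0.50, quasi-likelihood adjusted p = 0.0895). Prkca, the kinase of rod bipolar cells, was at 2.51 to 3.40 CPM in the controls and 3.50 to 12.4 CPM in diabetic libraries, which do not overlap (log2 fold change 0.99, SE 0.43, quasi-likelihood adjusted p = 0.197). The 2 lower genes were Nefl (log2 fold change -0.72, SE 0.35, quasi-likelihood adjusted p = 0.245) and Nefm (-1, SE 0.45, quasi-likelihood adjusted p = 0.207). Gad1 differed by 0.58 (log2, SE 0.68), Gad2 by 0.14 (SE 0.53), Pax6 by 0.20 (SE 0.69) and Calb2 by -0.32 (SE 0.30). The rise was thus not shared by all genes of the list. The part of inner retinal neurons in the level of Syt3 was not tested.

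**Figure D2:**
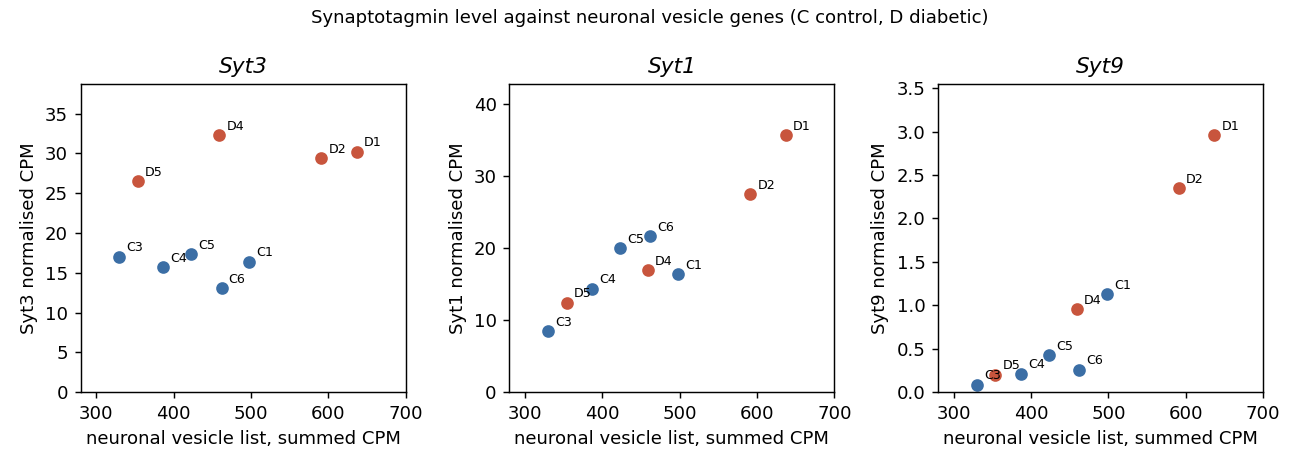
Normalised CPM of Syt3, Syt1 and Syt9 (vertical axes, from 0) against the summed CPM of the neuronal vesicle list (horizontal axes) in 5 control (C) and 4 diabetic (D) libraries. Syt1 and Syt9 are highest in D1 and D2, where the list is highest at 637 and 591 CPM, while Syt3 is at 26.5 to 32.3 CPM in all 4 diabetic libraries, from 354 to 637 CPM of the list.

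Within the neuronal vesicle list, Syp, the synaptic vesicle protein synaptophysin, was at 10.9, 4.6, 6.23, 6.53 and 8.76 CPM in controls 1, 3, 4, 5 and 6 and at 23.1, 16.3, 12.6 and 7.20 CPM in diabetic 1, 2, 4 and 5 (log2 fold change 1.01, SE 0.39, quasi-likelihood adjusted p = 0.151). Diabetic 5 lay inside the control range. Cplx3, a complexin of ribbon synapses, differed by 1.01 (log2, SE 0.51, quasi-likelihood adjusted p = 0.256), with 56.7 CPM in diabetic 1 and 13.3 CPM in diabetic 5. Unc13c, a vesicle priming factor, differed by -0.35 (log2, SE 0.17, quasi-likelihood adjusted p = 0.240).

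When the log2 sum of the neuronal vesicle list was added to the fit as a covariate, the log2 fold change of Syt3 was 0.88 (quasi-likelihood adjusted p = 0.146), against 0.89 without it. That of Syt1 went from 0.52 to -0.02, that of Syt4 from 0.50 to -0.16 and that of Syt13 from 0.094 to -0.99. With the inner retinal neuron list as covariate, Syt3 had 0.85 (quasi-likelihood adjusted p = 0.505), Syt1 -0.32, Syt4 -0.63 and Syt13 -1.38. These values are descriptions of a contrast that chose Syt3, and nothing about the source of its RNA is read from them. In both fits 0 of 11748 genes passed an adjusted p of 0.05, where 1560 and 881 genes respectively had an unadjusted p below 0.05, and no other tool was run with these covariates. The difference in response between Syt3 and the other synaptotagmins was not itself tested.

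**Figure D3:**
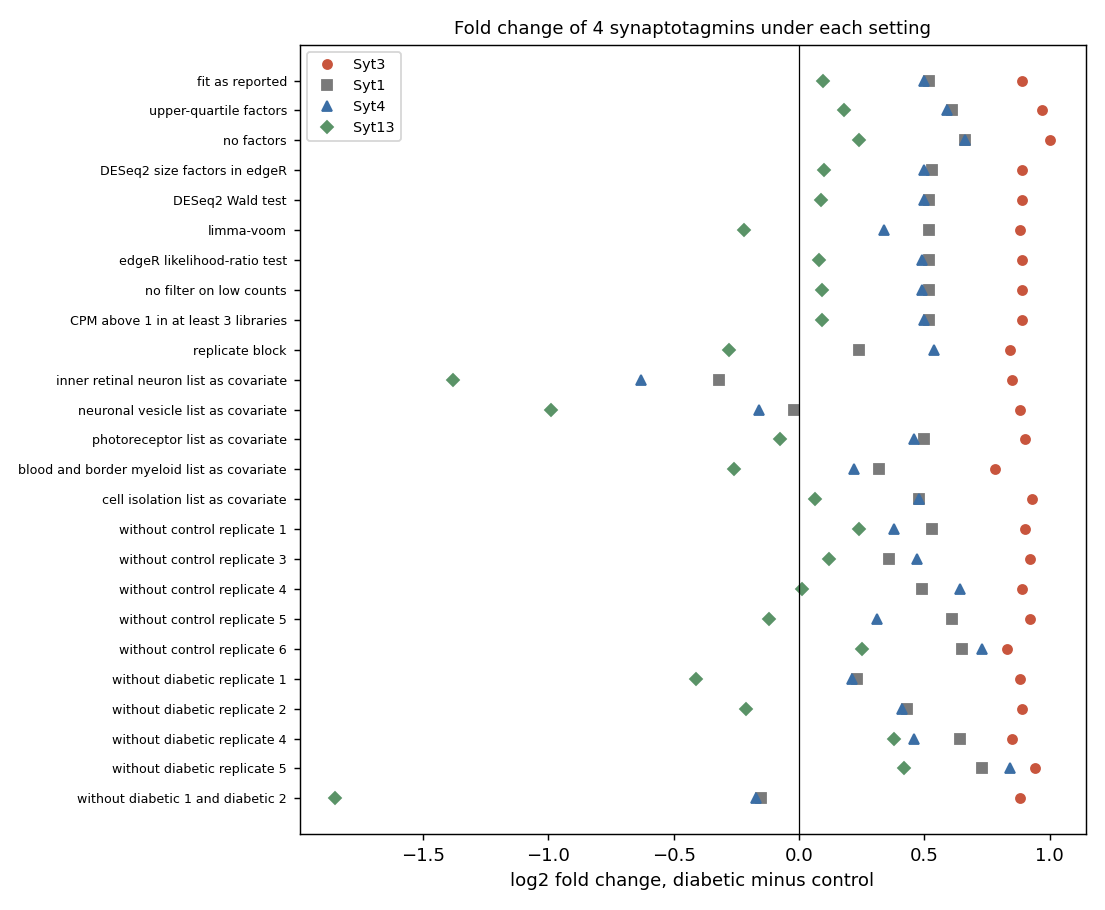
Log2 fold change, diabetic minus control (horizontal axis), of Syt3, Syt1, Syt4 and Syt13 in the fit as reported and under each alternative (vertical axis). Syt3 lies at 0.78 to 1.00, Syt1 at -0.32 to 0.73, Syt4 at -0.63 to 0.84 and Syt13 at -1.85 to 0.42. The Syt13 value of -1.85 is from the fit without diabetic 1 and diabetic 2, added after the data were seen. Syt3 was chosen for this contrast, and its SE in the fit as reported was 0.20. That of Syt1 was 0.37, that of Syt4 0.54 and that of Syt13 0.63. Nothing is read from the narrower span of Syt3.

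Diabetic 1 and 2 were also left out together, as an alternative added after the data were seen. The log2 fold change of Syt3 was then 0.88 (quasi-likelihood adjusted p = 0.204, with 0 genes called), that of Syt1 -0.15, that of Syt4 -0.17 and that of Syt13 -1.85. Leaving out 1 library at a time gave Syt3 values of 0.83 to 0.94. Its adjusted p by the quasi-likelihood test passed 0.05 without control 1, control 6 or diabetic 5, and did not pass without control 3 (0.0836), control 4 (0.0722), control 5 (0.1), diabetic 1 (0.0855), diabetic 2 (0.0869) or diabetic 4 (0.196).

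Other cell lists moved between the groups as well. The blood and border myeloid list, with Ccr2 and Lcn2 at 0, summed to 986, 1310, 875, 1110 and 1020 CPM in controls 1, 3, 4, 5 and 6 and to 2070, 1220, 1630 and 1320 CPM in diabetic 1, 2, 4 and 5. Of its 15 tested genes 13 were higher and none passed an adjusted p of 0.05. At an unadjusted p below 0.05, 9 were higher and 1 lower, 10 of 15 against 18.9% of all genes, and the groups did not overlap for 5, 4 of them higher, against 8.44% of all genes. Those 4 were S100a8, S100a9, Cd163 and Plac8. The lower gene was Csf3r, the most abundant of the list, at 301 to 370 CPM in control and 277 to 298 CPM in diabetic libraries. S100a9, a calcium-binding protein of neutrophils and monocytes, was at 5.57, 4.51, 0.537, 0.214 and 0.773 CPM in controls 1, 3, 4, 5 and 6 and at 37.0, 14.8, 52.9 and 14.9 CPM in diabetic 1, 2, 4 and 5 (log2 fold change 3.61, SE 1.2, quasi-likelihood adjusted p = 0.105). Cd163, a scavenger receptor of border macrophages, was at 57.3 ± 22.1 CPM (SD, n = 5) and 168 ± 64.3 CPM (SD, n = 4), with an adjusted p of 0.0895 by edgeR. S100a9 and Cd163 were high in the same 4 libraries as Syt3. Diabetic 2 lay inside the control range of the summed list, with Syt3 at 29.4 CPM. With this list as covariate Syt3 differed by 0.78 (log2, quasi-likelihood adjusted p = 0.635, with 0 genes called), the lowest value of any alternative. The fit describes a contrast that chose Syt3, and the part of these cells in the level of Syt3 was not tested. The photoreceptor list summed to 344 to 1590 CPM in control and 560 to 2270 CPM in diabetic libraries, and gave Syt3 0.90 as covariate. The cell isolation list of immediate-early and stress genes spanned 5870 to 53700 CPM among controls and 15900 to 27100 CPM among diabetic libraries, and gave Syt3 0.93 as covariate, with an adjusted p of 0.00194 in the quasi-likelihood test.

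**Figure D4:**
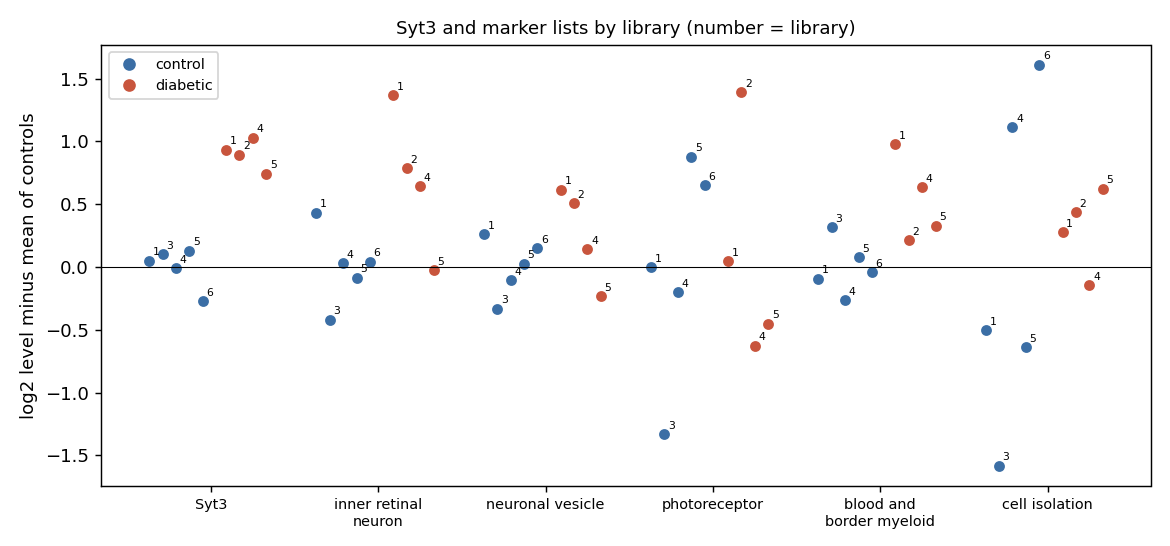
Log2 level of Syt3 and log2 summed CPM of 5 marker lists in each library, as the difference from the mean of the 5 controls (vertical axis), with library numbers beside the points. The Syt3 points of the groups are apart, while the groups overlap for every list shown.

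The lymphocyte list, led by Cd4, Lck and Cd8a, held Cd3d, Cd3g, Ms4a1 and Nkg7 at 0 in all libraries. It summed to 794 to 950 CPM in control and 729 to 993 CPM in diabetic libraries. Most of this sum was Cd4, at 786 to 940 CPM in control and 723 to 983 CPM in diabetic libraries. The Muller glia and astrocyte list summed to 12500 to 17500 CPM and 12200 to 14100 CPM, and the vascular cell list to 578 to 791 CPM and 456 to 660 CPM. Most of the Muller glia and astrocyte sum was Apoe, at 10000 to 14900 CPM in control and 10000 to 12000 CPM in diabetic libraries. Rlbp1, of the same list, was at 25.5 to 56.2 CPM in control and 24.2 to 60.2 CPM in diabetic libraries.

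The assembled transcripts show which exons of Syt3 were covered. Spliced transcripts on the plus strand carried 7, 7 and 6 of the 9 annotated introns of Syt3 in controls 1, 3 and 4, and 8, 8, 6 and 8 in diabetic 1, 2, 4 and 5. In control 5 the plus strand held only the annotated transcript at a mean coverage of 0.161 reads per base, and in control 6 no plus-strand transcript of Syt3 was assembled although 102 reads were counted. An assembly needs a minimum of reads, so it is used here for structure and not for level. Exons 4 to 10 carried plus-strand coverage in controls 1, 3 and 4 and in all 4 diabetic libraries. Exon 1 had a plus-strand coverage of 0 in controls 1, 3, 4 and 6 and in diabetic 4. It had 0.0211 reads per base in control 5, 0.252 in diabetic 1, 0.0555 in diabetic 2 and 0.689 in diabetic 5. Which start of Syt3 was used in these cells was not tested.

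Assembled fragments on the minus strand overlapped between 1 and 3 exons of Syt3 in control and between 3 and 5 in diabetic libraries. Their mean coverage was 0.37 to 0.964 reads per base in control and 1.05 to 1.98 in diabetic libraries, which do not overlap. On the plus strand it was 0 to 2.93 in control and 2.4 to 4.65 in diabetic libraries. These values are not scaled for depth, and no level is read from them. The strand setting of the counting is not given in the sources used here, so reads from Syt3 and from any antisense partner cannot be told apart.

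**Figure D5:**
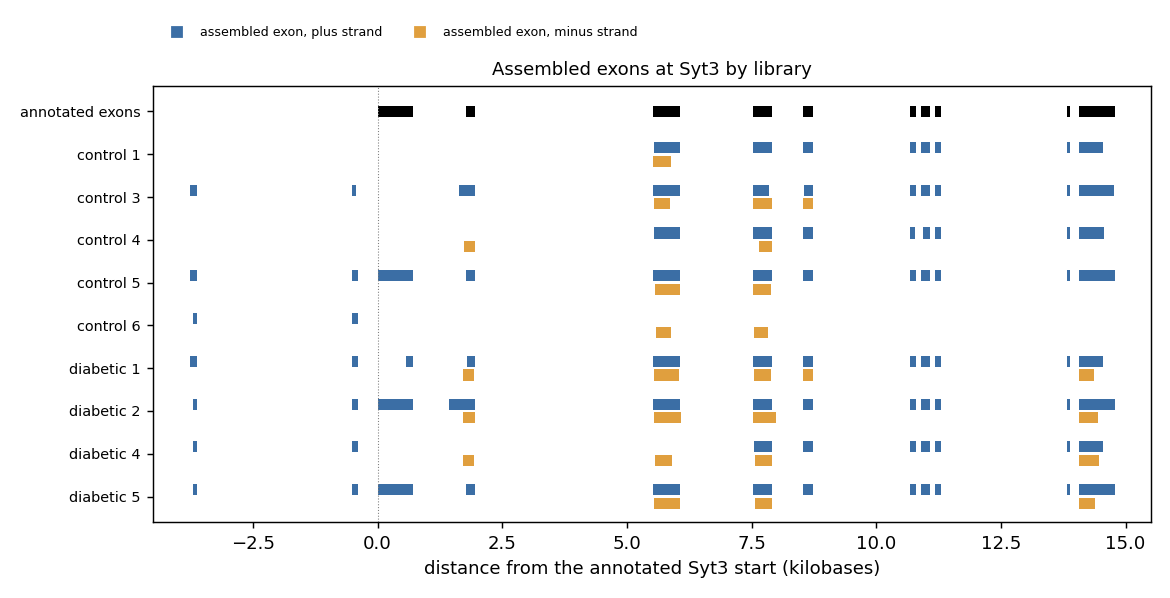
Exons assembled at Syt3 in each library on the plus (blue) and minus (orange) strand, by distance from the annotated start in kilobases, with the 10 annotated exons in black on top. Plus-strand exons fall on the annotated exons in every library but control 6, and a spliced pair of exons before the annotated start is present in 7 of 9 libraries.

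A second spliced transcript lay just before the annotated start of Syt3 on the same strand. It had 2 exons joined at the same intron, from 100389680 to 100392797 on Rnor6 chromosome 1, in controls 3, 5 and 6 and in all 4 diabetic libraries. It carried no reference identifier and was not joined to Syt3 in any library.

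The annotated neighbours of Syt3 found in the count table had few counts, and none passed the filter. LOC108349570 was not found there. In RefSeq's order on GRCr8 they are Clec11a, Shank1 and C1h19orf81 before Syt3, and LOC108349570, Lrrc4b and Aspdh after it. C1h19orf81, listed in the table as RGD1309036, had 7, 7, 4, 3 and 1 counts in controls 1, 3, 4, 5 and 6 and 11, 10, 12 and 10 in diabetic 1, 2, 4 and 5. Like Syt3 it was higher in every diabetic library than in any control. Without the filter its log2 fold change was 1.46 (quasi-likelihood adjusted p = 0.26 over 17822 genes). Shank1, a postsynaptic scaffold gene, had 6 counts in control and 14 in diabetic libraries, 9 of them in diabetic 2. Clec11a had 28 and 19 counts, Lrrc4b 4 and 5, and Aspdh 1 and 0.

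The relatives with paired C2 domains, such as the extended synaptotagmins and the Doc2 proteins, had 9 tested genes, of which 6 were higher, 3 lower and 0 passed, with 0 at an unadjusted p below 0.05 (median log2 fold change 0.04, against 0.00 over all genes). Mctp2, a C2 protein of the endoplasmic reticulum, differed by 0.98 (log2, SE 0.51, quasi-likelihood adjusted p = 0.270), and diabetic 2 was lowest of all libraries at 0.714 CPM. Esyt2, a tether of the endoplasmic reticulum to the plasma membrane, had -0.29 (SE 0.16, quasi-likelihood adjusted p = 0.294). Mctp1 had -0.70 (SE 0.39, quasi-likelihood adjusted p = 0.300).

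Synaptotagmins act on SNARE proteins, and 36 SNAREs and SNARE regulators outside the neuronal list were tested. Of these 15 were higher and 21 lower, and none passed an adjusted p of 0.05. At an unadjusted p below 0.05, 6 were higher and 8 lower, 14 of 36 in all, against 18.9% of all genes. The groups did not overlap for 9 of them, 3 higher and 6 lower, against 8.44% of all genes. The 3 higher were Vamp8, Use1 and Napb. Napb was at 2.06 to 2.83 CPM in control and 2.87 to 6.63 CPM in diabetic libraries (log2 fold change 1.05, SE 0.37, quasi-likelihood adjusted p = 0.122). The list was not compared with others by a test.

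Stx12, a syntaxin of recycling endosomes, was at 138, 151, 155, 131 and 155 CPM in controls 1, 3, 4, 5 and 6 and at 118, 109, 107 and 117 CPM in diabetic 1, 2, 4 and 5. Every diabetic library was below every control, and the log2 fold change was -0.37 (SE 0.11, quasi-likelihood adjusted p = 0.0947). Vamp8, the SNARE of late endosomes and of granule release in blood cells, was at 23.1, 16.6, 26.3, 21.8 and 25.1 CPM in the controls and 34.7, 32.8, 51.9 and 30.4 CPM in the diabetic libraries. It differed by 0.73 (log2, SE 0.23, quasi-likelihood adjusted p = 0.0991), and its diabetic values were all above the controls. Use1, a SNARE of transport back to the endoplasmic reticulum, was at 25.9 ± 3.90 CPM (SD, n = 5) and 35.9 ± 2.89 CPM (SD, n = 4), with a log2 fold change of 0.47 (SE 0.16) and an adjusted p of 0.115 by edgeR.

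The list of calcium sensors and of genes of lysosome and granule release had 29 tested genes, 9 higher and 20 lower, none of which passed. At an unadjusted p below 0.05, 4 were higher and 5 lower, 9 of 29 against 18.9% of all genes. The groups did not overlap for 5, 4 higher and 1 lower, against 8.44% of all genes. S100a10, the partner of annexin A2 at the plasma membrane, was at 20.4, 18.9, 18.3, 17.8 and 13.9 CPM in controls 1, 3, 4, 5 and 6 and at 30.9, 30.8, 36.8 and 24.9 CPM in diabetic 1, 2, 4 and 5. Its groups did not overlap, and they differed by 0.78 (log2, SE 0.21, quasi-likelihood adjusted p = 0.0620). Anxa1, a calcium-dependent membrane-binding protein that restrains inflammation, was at 27.3 ± 5.62 and 47.2 ± 4.00 CPM (SD, n = 5 and 4), a difference of 0.79 (log2, SE 0.21, quasi-likelihood adjusted p = 0.0620). Exoc4, a subunit of the exocyst that tethers vesicles, had -0.54 (SE 0.17, quasi-likelihood adjusted p = 0.0934), and every diabetic library was below every control.

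Across the 9 libraries, the genes whose log2 CPM was most like that of Syt3 were S100a10 (Pearson's r 0.971), Fxyd2 (0.968), Lsm8 (0.961), Lage3 (0.958) and Mettl7a (0.954). These values describe the pattern, and no p is given, because the groups are apart for Syt3 and any gene that separates them scores high. Fxyd2, a regulator of the sodium pump, was at 0.749 to 1.18 CPM in the controls and 3 to 4.83 CPM among diabetic libraries, a difference that follows from how it was picked. Lsm8, of the ring of proteins on U6 RNA, was at 13.4 to 15.8 and 19.3 to 26.3 CPM. No synaptotagmin and no gene of the neuronal vesicle list was among the 5. Nothing is read from this, since the groups overlapped for every tested gene of that list and for every other tested synaptotagmin.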

How the data were processed

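Raw counts per gene symbol were deposited by the authors for 9 libraries, with titles giving the group and number. TopHat2 2.0.14, StringTie 1.2.4 and edgeR are named in the submitters' processing notes, with build Rnor_6.0, and the counting program is not given in the sources used here. A table deposited by the authors gives their log2 fold change with its p-value. The transcript assemblies hold TPM and coverage, per the file headers, and were used for structure. Genes were filtered with filterByExpr (minimum count 10, minimum total 15) and scaled by TMM. They were tested with edgeR 4.0.16 (quasi-likelihood, robust, no covariates, Benjamini-Hochberg, threshold 0.05) in R 4.3.3. The procedure was also run on simulated counts, which held no batches and no differences in cell content. Each SE was derived from the log2 fold change and its p through the normal distribution. The common biological coefficient of variation was 0.251. Log2 CPM used a prior count of 2. The alternatives used DESeq2 1.42.0, limma 3.58.1, other factors and filters, covariates and left-out libraries.

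The members, lists and tests were chosen with earlier results of these data known. Named genes are all synaptotagmins, the 3 smallest p per pathway list where none passed, the 3 nearest neighbours of Syt3, the 5 genes most like Syt3 and the top markers. S100a9, Prkca, Napb, Nefl, Nefm, Gad1, Gad2, Pax6, Calb2 and Rlbp1 were named after their values were seen. No 2 libraries agreed within sampling noise (chi-square of at least 11.7 per degree of freedom).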

Additional observations from a re-analysis of the deposited data

Results flagged for a closer look

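The vascular cell list summed to 791 CPM in control 1, apart from the 578 to 615 CPM of the other 4 controls. Its distance to the nearest control was 0.824 of the range of the group. Chance passes the limit used for flagging in about 1 in 20 groups of values, and 64 groups were looked at. Syt3 in control 1, at 16.4 CPM, lay among the other controls.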

How the results depend on the processing

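Syt3 stayed higher in diabetic libraries under all 24 alternatives, at 0.78 to 1.00 (log2) with adjusted p-values from 5.42e-07 to 0.635, and passed under 12 of them. It did not pass with the replicate block (0.84), the inner retinal neuron (0.85), neuronal vesicle (0.88), photoreceptor (0.90) or blood and border myeloid (0.78) list as covariate, or without diabetic 1 and 2 (0.88), so that 0 members were called there. Leaving out 1 library gave Syt3 0.83 to 0.94, 0 to 1 members called and 0 to 75 genes called, the most without control 1. The cause was not tested. Over all genes 8 were called, 5 of them higher, against 31 (27 higher) with upper-quartile factors, 29 (28 higher) without factors, a setting that moved the median of all genes to 0.117, 588 (289 higher) by the DESeq2 Wald test, 4 (2 higher) by limma-voom, 171 (136 higher) by the likelihood-ratio test, 42 without a filter, 5 with CPM above 1 in at least 3 libraries, 1 with the photoreceptor covariate and 1439 (547 higher) with the cell isolation covariate. By edgeR, 0 genes were called with the replicate block (1129 at an unadjusted p below 0.05), the inner retinal neuron (881), neuronal vesicle (1560) and blood and border myeloid (910) covariates, and without diabetic 1 and 2 (1330). For the 3 pairs of libraries that share a replicate number, the correlations of deviations were 0.201, -0.114 and 0.0156. Libraries of unlike number were not compared, so whether the numbers pair the libraries was not tested. Signs turned for Syt1 with the inner retinal neuron (-0.32) and neuronal vesicle (-0.02) covariates and without diabetic 1 and 2 (-0.15), for Syt15 with the inner retinal neuron (-0.13) and blood and border myeloid (-0.092) covariates, and for Cplx3 with the inner retinal neuron covariate (-0.15). Other members, none of them called, also changed sign: Syt13 spanned -1.85 to 0.42, Syt4 -0.63 to 0.84, Syt12 -1.70 to 0.34 and Syt11 -0.11 to 0.23. The 5 genes most like Syt3 were the same with prior counts of 0.5 and 5, while by deviations from group means 5 and 4 of the 5 were shared. Depth limits Syt2, Syt5, Syt6, Syt7, Syt12 and Syt17.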

Other observations

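When each library was taken as its deviation from the mean of its group, the genes most like Syt3 over the 9 libraries were Zscan2 (Pearson's r 0.987), Zdhhc12 (0.959), AABR07073453.1 (0.953), Rpf2 (0.949) and Tmem218 (0.938), as a description with no p. Zscan2, a zinc finger gene, was at 2.74, 2.78, 1.93, 3.10 and 0.902 CPM in controls 1, 3, 4, 5 and 6 and at 3.16, 2.55, 3.50 and 1.5 CPM in diabetic 1, 2, 4 and 5. It was lowest in control 6 and in diabetic 5 within the groups, as Syt3 was. Its groups overlapped. Zdhhc12, a palmitoyltransferase gene, was likewise lowest in control 6 (16.8 CPM) and in diabetic 5 (28.4 CPM) within the groups.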
